A study of Mus musculus with 85 samples.

Results

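The nuclear-encoded subunits of respiratory complexes III, IV and V were followed through knockouts of NSL complex genes in the embryonic mouse brain and through fatty acid treatment of cultured pericytes. Members were all genes whose symbol starts with Uqcr, Atp5, Cox4, Cox5, Cox6, Cox7 or Cox8, without 4 pseudogenes, that had a mean of at least 10 in a deposited table. Of 48479 genes in the tables, 43 symbols matched and 39 were members, with 8 for complex III, 14 for complex IV and 17 for complex V. The mean reached 10 for 35 of them in every table, and the other 4 matches (Cox6a2, Cox7b2, Cox8b and Cox8c) reached it in none. Next to that limit, Cox6a2 reached its highest mean, 9 reads, in the culture table and stayed out, while Cox7a1, the member with the lowest such maximum, had 50.2 there. Reads of near-identical copies may be split by counting: the pseudogene Atp5l2-ps had a mean of 31.9 reads in the whole-brain table, where Atp5l had 58.8, so values of Atp5l are uncertain.

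Complex III passes electrons from ubiquinol to cytochrome c, complex IV passes them from cytochrome c to oxygen, and both pump protons across the inner mitochondrial membrane. Complex V, the ATP synthase, uses the proton gradient to make ATP. A few core subunits are encoded by mitochondrial DNA, and most of the others, which the nucleus encodes, are among the members, several of complex IV and of the ATP synthase ring in alternative isoforms. Members were grouped by symbol alone, so a few are not subunits: RefSeq names Atp5sl and Atp5s Dmac2 and Dmac2l, after a complex I assembly factor and its relative, and Cox7a2l is a supercomplex factor.

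MOF, the product of Kat8, acetylates histones as part of the NSL complex, in which KANSL2 and KANSL3 are further subunits. Mouse embryos at E14.5 were labelled Mof nKO, Kansl2 nKO, Kansl3 nKO or Cre control. The nKO animals are neural knockouts in which Nestin-Cre drives the deletion, so endothelial cells, pericytes and microglia of these embryos surround or accompany cells in which Cre is active. For all of these genotypes RNA was taken from the whole brain and from neural cells, endothelial cells and pericytes that had been sorted, and for Mof nKO and Cre controls also from sorted microglia. Library names write K2 for Kansl2 and K3 for Kansl3. A separate set holds primary pericytes of adult mouse brain, grown with a mixture of fatty acids bound to albumin (200 µM myristic, 200 µM palmitic, 20 µM arachidic and 10 µM lignoceric acid) or with vehicle, which was ethanol with albumin. The 64 RNA libraries form 20 groups of 3, or of 4 for Mof nKO and Cre endothelial cells and for Kansl3 nKO and Cre pericytes.

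Whole-brain libraries held 8444551 to 12641817 reads and neural ones 5687012 to 12665665. Sorted endothelial libraries held 10048082 to 25260285, those of pericytes 1572515 to 5852542, those of microglia 2215701 to 9817084 and cultures 42623429 to 51854152. Kat8 fell in all 6 knockout comparisons of whole brain and neural cells, but Kansl2 RNA rose in whole brain of the libraries labelled Kansl2 nKO (log2 fold change 0.46) and Kansl3 RNA rose in neural cells of those labelled Kansl3 nKO (0.28), so these genotypes are given as labelled. Control cells of each sort carried their own markers, with 8 of 8 listed at a CPM, the counts scaled to library size, of 1 or more. Vehicle cultures had 3 of 8 pericyte markers at that level, with Higd1b and Kcnj8 at 0. Since 41 genes well expressed in all sorted cells were also at 0 in every culture, these 0 values are not read as levels. In bulk RNA, fewer cells of a type and less RNA per cell cannot be told apart. The labels do not say that libraries of a group came from separate animals or cultures beyond their names, and p-values measure only the spread between these samples. Neural and microglia libraries of Mof nKO share the names M643, M646 and M689, so these cell types may come from the same embryos.

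Promoter sequences, 250 bases before to 50 after the transcription start, were held by the RefSeq table (GRCm38.p6) for 32 of the 39 members. They are shown because motifs for NRF1, ETS-family factors and YY1, long known as regulators of respiratory genes, could be searched in them on both strands. The motifs were TGCGCA (NRF1, 1 of the 2 repeats of its site), CCGGAAG (ETS core) and AAGATGGCG (YY1 core). The NRF1 motif was in 6 of 32 members' promoters (18.8%) and in 2178 of all 27025 promoters (8.06%). The ETS core was in 9 (28.1%) against 9.12% of all, and the YY1 core in 2 (6.25%) against 1.5%. At least 1 of the 3 was in 15 members' promoters (46.9%) and in 4542 of all (16.8%). A match is a description of the letters in this window. The sequences below run 5′ to 3′ on the gene's strand with matches in capitals. They are those of Uqcrc1, Uqcrh, Cox6b1 and Atp5sl, the members with a motif among those that fell in every neural comparison, and of Cox6b2, which rose in whole brain and fell in culture and held none of the 3 motifs. Of the members that fell in every neural comparison, 8 had a promoter in the table and 4 of these held a motif, much the same share as among all members. The regions are chr9:108936398-108936697 (plus strand, Uqcrc1, with 2 matches of the NRF1 motif side by side), chr4:116075021-116075320 (minus strand, Uqcrh, ETS core), chr7:30626065-30626364 (minus strand, Cox6b1, ETS core), chr7:25619164-25619463 (plus strand, Atp5sl, YY1 core) and chr7:4753045-4753344 (minus strand, Cox6b2).
Uqcrc1: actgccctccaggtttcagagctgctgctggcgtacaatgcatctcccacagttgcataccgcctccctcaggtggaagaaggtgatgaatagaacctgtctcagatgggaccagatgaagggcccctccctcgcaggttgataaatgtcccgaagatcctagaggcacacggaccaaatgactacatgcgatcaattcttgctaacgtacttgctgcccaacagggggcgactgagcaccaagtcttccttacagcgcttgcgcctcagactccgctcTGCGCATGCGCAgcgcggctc
Uqcrh: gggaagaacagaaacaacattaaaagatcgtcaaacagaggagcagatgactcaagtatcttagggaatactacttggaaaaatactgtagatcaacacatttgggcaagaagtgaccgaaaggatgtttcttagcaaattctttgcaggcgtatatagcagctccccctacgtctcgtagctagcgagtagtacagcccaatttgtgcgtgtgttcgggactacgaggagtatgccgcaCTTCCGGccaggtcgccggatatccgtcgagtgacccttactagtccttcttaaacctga
Cox6b1: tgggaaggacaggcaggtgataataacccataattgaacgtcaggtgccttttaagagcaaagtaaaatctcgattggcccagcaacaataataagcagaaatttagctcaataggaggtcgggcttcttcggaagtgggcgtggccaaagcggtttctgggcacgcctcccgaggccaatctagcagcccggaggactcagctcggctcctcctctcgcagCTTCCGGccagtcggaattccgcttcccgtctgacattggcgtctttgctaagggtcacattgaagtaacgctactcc
Atp5sl: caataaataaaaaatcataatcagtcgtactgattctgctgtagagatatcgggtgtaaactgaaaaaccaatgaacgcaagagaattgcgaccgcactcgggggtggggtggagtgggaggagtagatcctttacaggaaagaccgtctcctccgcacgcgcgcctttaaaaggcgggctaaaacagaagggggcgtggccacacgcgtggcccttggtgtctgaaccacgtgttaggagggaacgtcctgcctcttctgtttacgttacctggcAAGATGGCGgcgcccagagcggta
Cox6b2: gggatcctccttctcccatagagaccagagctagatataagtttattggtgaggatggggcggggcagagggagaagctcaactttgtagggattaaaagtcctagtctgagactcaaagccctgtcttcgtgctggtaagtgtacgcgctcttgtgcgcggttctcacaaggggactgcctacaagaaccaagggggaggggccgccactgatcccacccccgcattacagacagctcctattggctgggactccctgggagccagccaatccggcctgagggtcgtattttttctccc

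In sorted neural cells labelled Kansl3 nKO, 30 of 36 tested members fell and 0 rose against Cre controls, where 28.8% of 14534 genes fell and 26.4% rose (limma on log2(value + 1), Benjamini-Hochberg adjusted p under 0.05). The median member had a log2 fold change of -0.50, and the median of all genes was 0.01. All 8 complex III members fell (median -0.67), 10 of 11 of complex IV (median -0.42) and 12 of 17 of complex V (median -0.38). The 12 include Atp5sl and Atp5s, which carry complex V symbols only.

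Among complex III members, Uqcrq, a small membrane subunit, had 169, 196 and 182.5 normalized counts in Kansl3 nKO neural cells, against 422, 343 and 288 in Cre controls. The core protein Uqcrc1 had 845, 904 and 988 in the knockout, against 1512, 1466 and 1437, and the other core protein Uqcrc2 had 859.7, 908 and 966, against 1493, 1476 and 1481. Every knockout library lay below every control for these 3 genes, with log2 fold changes of -0.93 ± 0.13 for Uqcrq (± SE, adjusted p = 2.64e-05), -0.69 ± 0.07 for Uqcrc1 (adjusted p = 2.94e-06) and -0.70 ± 0.07 for Uqcrc2 (adjusted p = 1.53e-06). Uqcrfs1, the Rieske iron-sulfur protein, fell by 0.57 and the hinge protein Uqcrh by 0.79 on the log2 scale.

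In complex IV, Cox6b1, a subunit on the intermembrane side, had 517, 537 and 686 normalized counts in Kansl3 nKO, against 966, 1130 and 1121 in Cre controls. Cox7a2l, the supercomplex factor that joins complexes III and IV, had 732, 760.3 and 848 in the knockout, against 1342, 1332 and 1386. Both sets of libraries stood apart, with log2 fold changes of -0.89 ± 0.10 (Cox6b1, adjusted p = 5.28e-06) and -0.80 ± 0.07 (Cox7a2l, adjusted p = 9.23e-07). Cox5a, next to Cox4i1 in the complex, was the complex IV member that did not pass, at -0.09.

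The largest fall among all members was that of Atp5sl, which is counted with complex V by its symbol only. It had 29.5, 43.2 and 42.4 normalized counts in Kansl3 nKO neural cells, against 121, 144 and 167 in Cre controls. Atp5s, described as a coupling factor of the ATP synthase, had 15.2, 10.6 and 25.2 in the knockout, against 45.9, 32.5 and 39.6, and Atp5k, subunit e of the membrane part, had 309, 284 and 350.96, against 559, 615 and 513. No knockout library reached a control for these genes, and their log2 fold changes were -1.89 ± 0.19, -1.23 ± 0.31 and -0.84 ± 0.10 in that order (adjusted p = 1.58e-06, 0.00326 and 7.07e-06). The catalytic subunit Atp5b did not pass, with 7285, 7765 and 8681 in Kansl3 nKO against 8037, 8218 and 7953 in Cre controls (-0.03), nor did Atp5d (0.05) or the c-ring genes Atp5g1, Atp5g2 and Atp5g3 (-0.11, -0.19 and 0.01).

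**Figure D1:**
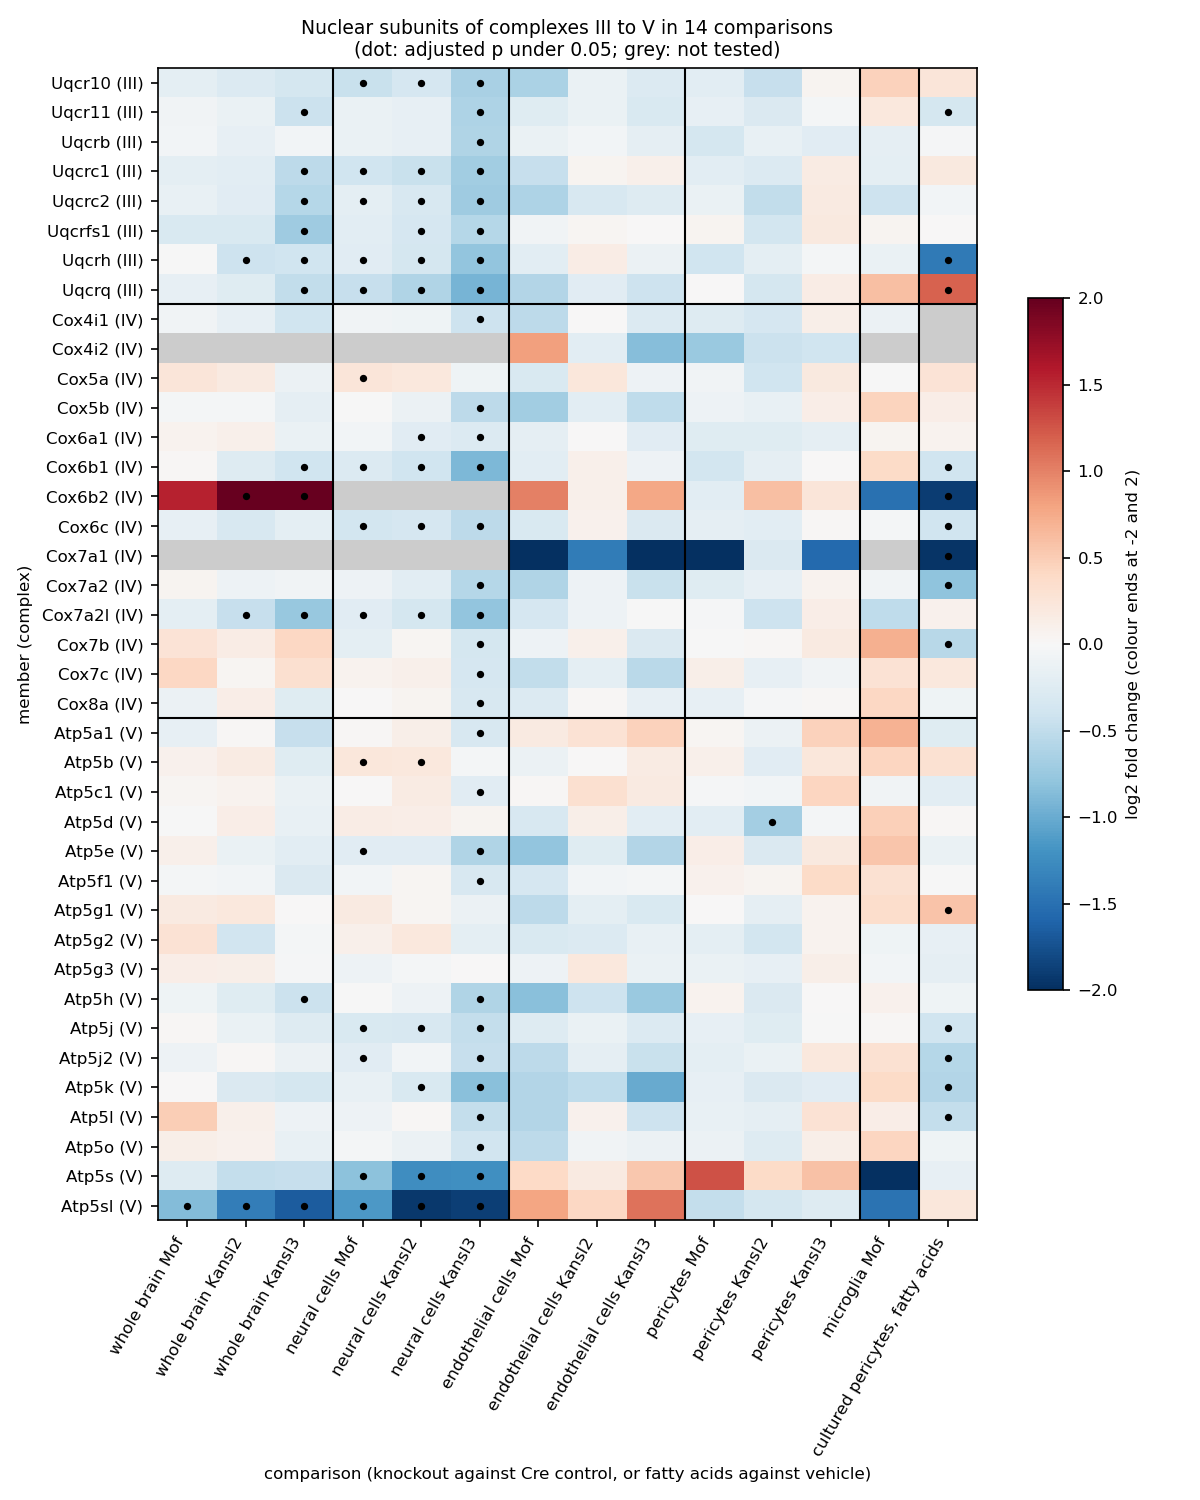
Log2 fold change (colour) of each member (rows, by complex) in the 14 comparisons of a knockout with Cre controls or of fatty acids with vehicle (columns), with a dot where the adjusted p was under 0.05 and grey where the gene was not tested. Falls are densest in the neural Kansl3 column, with 30 dots, where 28.8% of all genes fell. Endothelial cells and microglia have none, and there 0% of all genes passed.

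In neural cells of Mof nKO, 13 of 36 members fell and 2 rose, beside 17.1% of all genes that fell and 19.4% that rose, and the median member was at -0.11. In those labelled Kansl2 nKO, 14 fell and 1 rose, beside 22.1% and 20.1% of all genes, with a median of -0.14. Complex III contributed 5 and 6 of its 8 members to these falls, complex IV 3 and 4 of 11, and complex V 5 and 4 of 17. Both complex V counts include Atp5sl and Atp5s, which carry complex V symbols only. Without library Cre184, or without Cre188, 9 members passed in Mof nKO in place of 15.

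Uqcrq had 171.8, 213 and 193.3 normalized counts in Mof nKO neural cells, against 323, 262 and 219.6 in Cre controls, and 162, 198 and 200.1 in Kansl2 nKO, against 344, 278 and 233 in the same controls scaled within that table. Uqcrc1 had 880.4, 871 and 812 in Mof nKO, against 1159, 1118 and 1094, and 873, 863 and 898 in Kansl2 nKO, against 1231, 1188 and 1162. Neither knockout overlapped its controls for either gene, and the log2 fold changes were -0.46 ± 0.12 and -0.40 ± 0.06 in Mof nKO (adjusted p = 0.00706 and 0.000112) and -0.60 ± 0.14 and -0.44 ± 0.07 in Kansl2 nKO (adjusted p = 0.00245 and 0.000138). The Mof call for Uqcrq was lost without Cre183 (adjusted p = 0.0557). Uqcr10, another small complex III subunit, fell by 0.44 in Mof nKO, and Cox6b1 fell by 0.41 in Kansl2 nKO.

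Atp5sl had 43.2, 58.3 and 45.9 normalized counts in Mof nKO neural cells, against 93.1, 110.0 and 127 in Cre controls, and 20.4, 33.9 and 37.3 in Kansl2 nKO, against 98.9, 116.9 and 135. It was again the member with the largest fall, at -1.15 ± 0.17 in Mof nKO (adjusted p = 6.98e-05) and -1.93 ± 0.22 in Kansl2 nKO (adjusted p = 1.07e-05), with no overlap in either. Atp5s followed at -0.81 ± 0.32 in Mof nKO (adjusted p = 0.0496), a call lost with edgeR on recovered reads (adjusted p = 0.0681) and without any 1 Cre library or M643 or M646, and at -1.24 ± 0.31 in Kansl2 nKO (adjusted p = 0.00444).

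The members that rose, on values scaled within each table, were Atp5b and Cox5a. As a plain share of reads, given below, the members together lay lower in Mof nKO than in Cre controls. Atp5b and Cox5a were not tested on that measure. Atp5b had 7433, 7148 and 6944 normalized counts in Mof nKO, against 6158, 6270 and 6056 in Cre controls, all knockout libraries above all controls (0.22 ± 0.06, adjusted p = 0.00555). It also rose in Kansl2 nKO (0.21 ± 0.06, adjusted p = 0.0148), where the call was lost without Cre184 (adjusted p = 0.0530) or Cre188 (adjusted p = 0.0692). Cox5a had 569, 535 and 534 in Mof nKO, against 450.2, 494 and 437 in Cre controls (0.25 ± 0.07, adjusted p = 0.0144, lost without Cre188 or M643), and did not pass in Kansl2 nKO (0.21 ± 0.09, adjusted p = 0.0764).

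The 3 neural comparisons share their Cre libraries, so their results are given side by side. The members that fell in each of them were Uqcr10, Uqcrc1, Uqcrc2, Uqcrh and Uqcrq of complex III, Cox6b1, Cox6c and Cox7a2l of complex IV, and Atp5j, Atp5s and Atp5sl of the complex V symbols. Those that fell in none were Atp5b, Atp5d, Atp5g1, Atp5g2, Atp5g3 and Cox5a. The shared controls tie these calls together, so how many members recur is not read as a result.

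**Figure D2:**
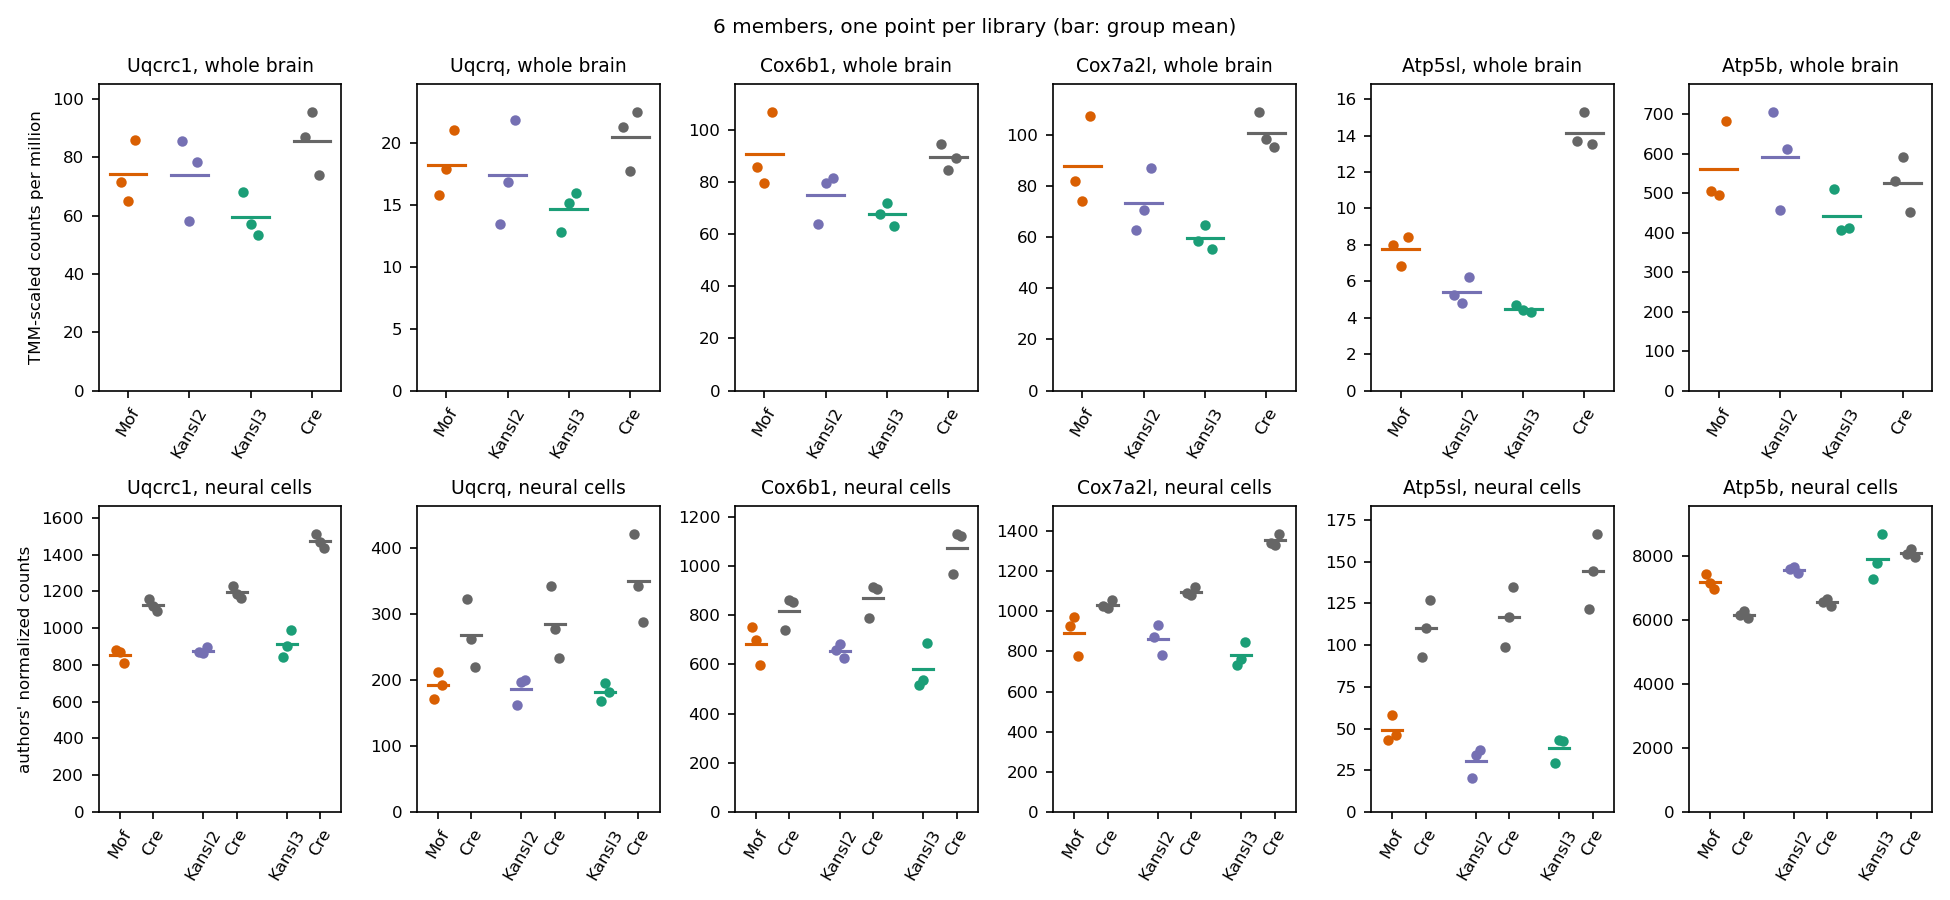
Levels of 6 members, with one point per library and a bar at the group mean: top, TMM-scaled CPM in whole brain, and bottom, the authors' normalized counts in neural cells, with each knockout left of its Cre controls. Atp5sl lies below the controls in every knockout of both rows, and Atp5b does not lie below them as a group in any neural table.

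The knockouts were also compared with each other, in 1 edgeR fit on whole reads recovered from the neural tables. Of 36 members, 24 were higher in Mof nKO than in Kansl3 nKO and 0 lower, where 42% of 14785 genes differed in either direction (median member 0.31). Likewise 25 were higher in Kansl2 nKO than in Kansl3 nKO and 0 lower, where 24% of genes differed (median member 0.36), a count of 13 without library K3_349. The largest differences between Mof nKO and Kansl3 nKO were those of Atp5sl (0.70 ± 0.24, lost without M646 or K3_349), Atp5k (0.65 ± 0.11, adjusted p = 9.00e-05) and Cox6b1 (0.59 ± 0.10, adjusted p = 0.000132). Between Kansl2 nKO and Kansl3 nKO they were those of Atp5k (0.54 ± 0.11, adjusted p = 0.00234), Atp5h, the d subunit of the peripheral stalk (0.50 ± 0.09, adjusted p = 0.000927), and Cox6b1 (0.47 ± 0.10, adjusted p = 0.0034), while Atp5sl was at 0.01 ± 0.25. Between Mof nKO and Kansl2 nKO 0 members differed (3 at an unadjusted p under 0.05 with edgeR, and 0 past the threshold with DESeq2), beside 6.63% of genes.

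Other features of the libraries moved with the neural groups. Neural progenitor markers summed to 0.167 to 0.200% of reads in Kansl3 nKO neural cells, against 0.112 to 0.137% in Cre controls, with 8 of 8 markers detected in the controls. Erythroid markers summed to 0.100 to 0.201% in Kansl3 nKO, against 0.044 to 0.0638%, and mitochondrially encoded RNAs to 0.312 to 0.335%, against 0.427 to 0.436%. Their part in the result was not tested. The members summed to 0.308 to 0.380% of reads in Mof nKO, 0.328 to 0.430% in Kansl2 nKO and 0.339 to 0.407% in Kansl3 nKO, against 0.398 to 0.474% in Cre controls. By this plain share Mof nKO did not lie above Kansl3 nKO, unlike in the edgeR fit above, which scales the libraries. The reason for this difference between the measures was not tested.

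In whole brain, members were tested with edgeR on raw counts from all 12 libraries, and the groups share 1 set of Cre controls. The members tested there include Cox6b2, which was not tested in neural cells. In Mof nKO 0 of 37 members rose and 1 fell, beside 1.93% and 4.04% of 16290 genes, a total of 2 without library Mof_200. In Kansl2 nKO 1 rose and 3 fell, beside 10.4% and 16.2%, a total of 2 without library K2_63, K2_68 or Cre_16. In Kansl3 nKO 1 rose and 10 fell, beside 15.2% and 18.8%, a total of 5 without library K3_149 and 6 without Cre_16. The median member was at -0.24 in Kansl3 nKO, with 33 of 37 below 0 and the median of all genes at -0.01, while it was at -0.13 in Kansl2 nKO and -0.01 in Mof nKO. By complex, 6 of 8 complex III members fell in Kansl3 nKO (median -0.46), 2 of 12 of complex IV (median -0.16) and 2 of 17 of complex V, Atp5sl among them (median -0.21).

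Uqcrc2 had 75.3, 70.9 and 63.9 TMM-scaled CPM in Kansl3 nKO brains, against 107, 104 and 101 in Cre controls, and Uqcrfs1 had 42.8, 39.6 and 35.9, against 64.1, 69.9 and 60.4. Neither gene overlapped (-0.57 ± 0.15, adjusted p = 0.00809, and -0.72 ± 0.15, adjusted p = 0.00295). Uqcrc2 had 85.8, 75.7 and 121 CPM in Mof nKO, on both sides of the controls, and 87.5, 79.5 and 100.1 in Kansl2 nKO, below every control. It did not pass in either (-0.15 and -0.23).

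Cox7a2l had 62.7, 70.5 and 87.0 CPM in Kansl2 nKO and 58.3, 64.8 and 55.3 in Kansl3 nKO, against 109, 98.3 and 95.2 in Cre controls. It lay below every control in both (-0.46 ± 0.14, adjusted p = 0.0266, and -0.76 ± 0.14, adjusted p = 0.0013), and the Kansl2 call was lost without library K2_63, K2_68 or Cre_16. Uqcrh fell in both as well (-0.42 ± 0.15, adjusted p = 0.0458, and -0.40, adjusted p = 0.049), and its Kansl2 call was lost in the fit of the 6 libraries alone (adjusted p = 0.0582) and without any 1 Cre library or K2_63 or K2_68.

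Atp5sl fell in every whole-brain knockout. It had 8.01, 6.85 and 8.44 CPM in Mof nKO, 5.22, 4.80 and 6.24 in Kansl2 nKO and 4.68, 4.45 and 4.32 in Kansl3 nKO, against 13.7, 15.3 and 13.5 in Cre controls. No knockout library reached a control, with log2 fold changes of -0.86 ± 0.15 in Mof nKO (adjusted p = 0.00675), -1.39 ± 0.15 in Kansl2 nKO (adjusted p = 2.78e-05) and -1.66 ± 0.16 in Kansl3 nKO (adjusted p = 9.52e-06).

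Cox6b2, the isoform of Cox6b1 known from testis, went the other way from a low level. It had 4.38, 5.66 and 3.70 CPM in Kansl2 nKO and 2.39, 2.001 and 5.56 in Kansl3 nKO, against 0.428, 0.63 and 0.571 in Cre controls. It rose in both (3.04 ± 0.44, adjusted p = 0.000198, and 2.59 ± 0.45, adjusted p = 0.000841), with no overlap. In Mof nKO it had 1.39, 2.32 and 1.17 CPM and did not pass (1.54 ± 0.50, adjusted p = 0.0756). Its usual counterpart Cox6b1 had 68.004, 72.0 and 63.4 CPM in Kansl3 nKO, against 94.7, 84.8 and 89.3 in Cre controls, and fell by 0.40. In neural cells Cox6b2 had a mean under 10 and was not tested. There it had 8.95 to 15.0 normalized counts in Kansl3 nKO, against 0 to 4.50 in Cre controls. In neural cells of Mof and Kansl2 nKO it overlapped its controls.

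Between whole-brain knockouts, Cox6b2 was the 1 member that differed between Mof nKO and Kansl2 nKO (-1.50 ± 0.38, lower in Mof nKO, adjusted p = 0.027, lost without K2_63, Mof_193 or Mof_200), beside 8.65% of genes; without library K2_63 or Mof_193 0 members differed, and without K2_70 the count was 2. Between Mof nKO and Kansl3 nKO 3 members were higher in Mof nKO, beside 13.5% of genes that differed: Atp5sl (0.79 ± 0.16, adjusted p = 0.00839), Cox7a2l (0.56 ± 0.14, adjusted p = 0.0205) and Cox6b1 (0.42 ± 0.12, adjusted p = 0.0333). That count was 1 without library K3_117, K3_149 or Mof_200, and 6 without Mof_197. Between Kansl2 nKO and Kansl3 nKO 0 members differed (7 at an unadjusted p under 0.05 with edgeR, 0 with DESeq2), beside 0.0368% of genes, and 2 differed without library K2_68.

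Microglial markers summed to 0.00434 to 0.00513% of reads in Mof nKO brains, 0.0087 to 0.0138% in Kansl2 nKO and 0.00987 to 0.0118% in Kansl3 nKO, against 0.00255 to 0.0028% in Cre controls. Erythroid markers summed to 0.0494 to 0.137% in Kansl2 nKO and 0.0521 to 0.117% in Kansl3 nKO, against 0.0265 to 0.0365% in Cre controls. Their part in the result was not tested.

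**Figure D3:**
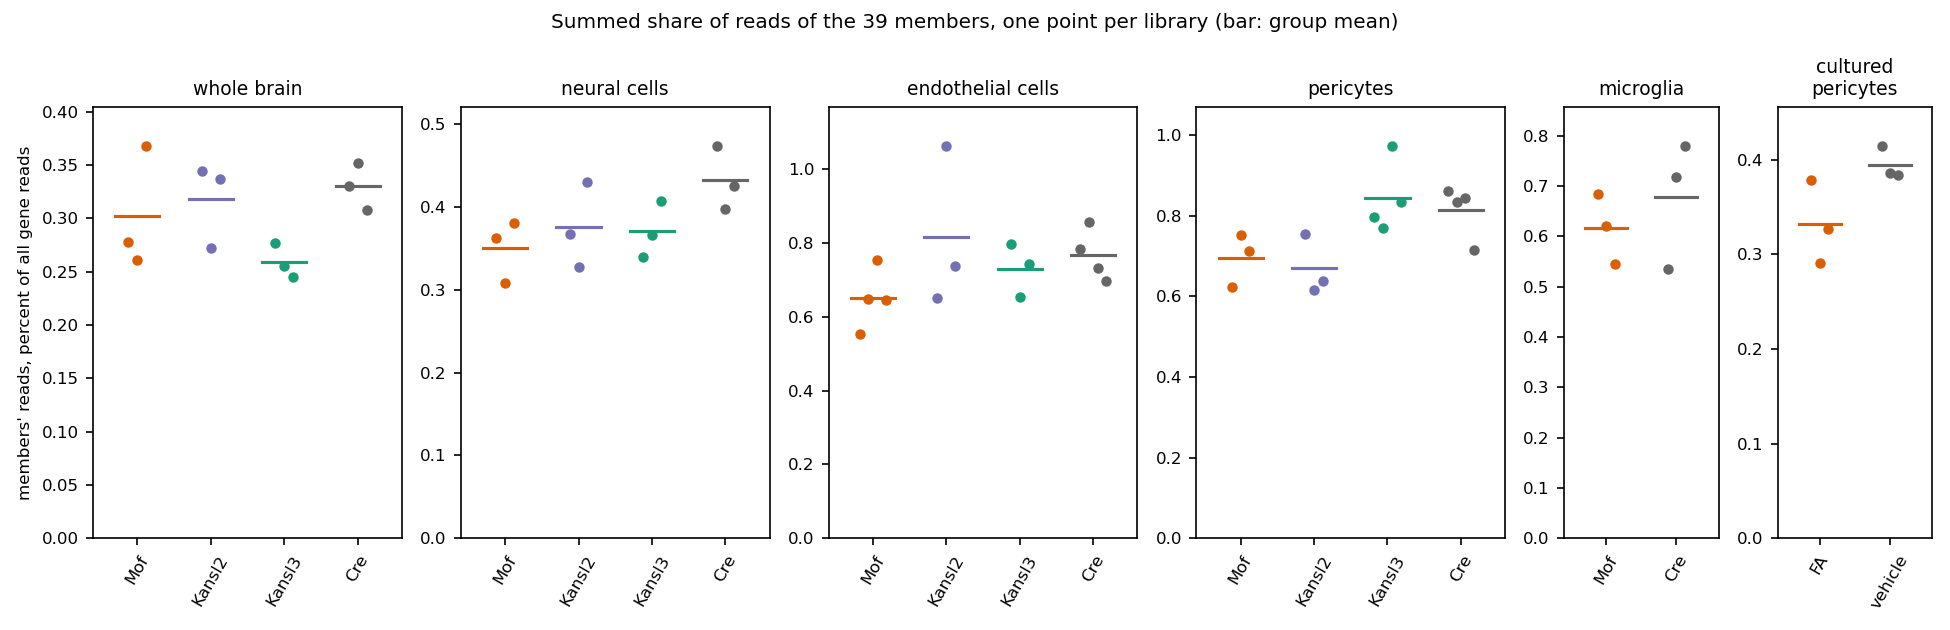
Summed reads of the 39 members as a percent of all gene reads in each library, by tissue or cell type, with a bar at the group mean and knockouts or fatty acids left of their controls. Whole-brain Kansl3 nKO libraries lie at 0.245 to 0.277%, below the 0.308 to 0.352% of Cre controls; Mof nKO neural cells and fatty acid cultures also lie below their controls, and the other groups overlap theirs.

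Genes that build or control these complexes were followed as separate lists. Their counts stand beside 17.1%, 22.1% and 28.8% of all genes that fell, and 19.4%, 20.1% and 26.4% that rose, in neural cells of Mof, Kansl2 and Kansl3 nKO. In whole brain 4.04%, 16.2% and 18.8% of all genes fell. Of 23 tested assembly factors of complex IV, 7 fell and 0 rose in neural cells of Mof nKO (median -0.32), 12 fell and 0 rose in Kansl2 nKO (median -0.40), and 15 fell and 0 rose in Kansl3 nKO (median -0.54). Coa5 (-1.24 ± 0.10), Cox15, which makes heme A (-1.24 ± 0.11), and Pet100 (-1.47 ± 0.18) were among those that fell in Kansl3 nKO. In whole brain 9 fell in Kansl2 nKO and 13 in Kansl3 nKO, with Taco1, a translation activator of the mitochondrial Cox1 RNA, at -1.72 ± 0.23 in Kansl3 nKO, and 1 fell in Mof nKO (Coa5, -0.52 ± 0.14). Of 6 complex III assembly factors, 3, 2 and 3 fell in neural cells of Mof, Kansl2 and Kansl3 nKO, with Uqcc1 at -1.16 ± 0.10 and Bcs1l, which inserts the Rieske protein, at -1.17 ± 0.19 in Kansl3 nKO. Of 4 complex V assembly factors, 2, 4 and 3 fell, with Tmem242 at -1.21 ± 0.11 and Atpaf2 at -0.99 ± 0.12 in Kansl3 nKO.

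Complex II is wholly encoded in the nucleus. Its list held the subunits Sdha, Sdhb, Sdhc and Sdhd and the assembly factors Sdhaf1, Sdhaf2, Sdhaf3 and Sdhaf4. Of these 8 genes, 4, 5 and 7 fell in neural cells of Mof, Kansl2 and Kansl3 nKO, with Sdhc at -0.89 ± 0.10 in Kansl3 nKO. In whole brain 1 and 5 fell in Kansl2 and Kansl3 nKO. Of 11 tested regulators of mitochondrial genes, 5 rose and 1 fell in Mof nKO neural cells, 6 rose and 3 fell in Kansl2 nKO, and 5 rose and 2 fell in Kansl3 nKO. Pprc1, a coactivator (0.90 ± 0.14), and Gabpb2, a subunit of the ETS factor GABP (0.67 ± 0.08), rose in Kansl3 nKO, while Polrmt, the mitochondrial RNA polymerase (-1.07 ± 0.13), and Tfam, which packages mitochondrial DNA (-0.61 ± 0.09), fell. Of 2 tested mitochondrially encoded partners in neural cells, mt-Co1 (-0.40) and mt-Cytb (-0.20) fell in Kansl3 nKO, and mt-Co1 rose in Mof nKO (0.28), while 0 of 6 passed in any whole-brain knockout. Of 12 further subunits and partners outside the symbol rule, 9 were tested in neural cells, where 3, 2 and 5 fell and 1, 1 and 0 rose in Mof, Kansl2 and Kansl3 nKO. Ndufa4, now counted as a complex IV subunit, fell in Kansl3 nKO (-0.53 ± 0.08), and Atpif1, the inhibitor of the ATP synthase, rose in Kansl2 nKO (0.34 ± 0.08). In whole brain 1 of 10 fell in Kansl3 nKO (Higd2a, -0.50 ± 0.18) and 0 passed in the other knockouts. None of these lists had a gene that passed in endothelial cells, pericytes or microglia. Of all genes, 0% passed in every endothelial comparison, in Mof nKO pericytes and in Mof nKO microglia. In pericytes 1.26% of genes fell and 0.951% rose in Kansl2 nKO, and 3.11% changed in Kansl3 nKO.

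Isoform use was read in control libraries as CPM, a level not corrected for gene length, so each gene is compared with itself across cell types, as a description, since kits and tables differ. Cox4i2, the isoform of Cox4i1 known from lung and from low oxygen, stood at 125 ± 24.4 CPM in sorted pericytes (SD, n = 4), with a range of 101 to 159. It stood at 0.421 ± 0.155 in whole brain, 0.243 ± 0.131 in neural cells, 1.76 ± 0.896 in endothelial cells (n = 4), 2.67 ± 0.803 in microglia and 0.187 ± 0.0846 in cultured pericytes (n = 3 elsewhere). The pericyte range is separate from all of the others. Cox4i1 stood at 155 ± 16.9 CPM in neural cells, 173.1 ± 7.33 in whole brain, 457 ± 61.7 in endothelial cells, 571 ± 55.1 in pericytes and 688.9 ± 122 in microglia, where neural cells and whole brain overlap, as do endothelial cells and pericytes, and pericytes and microglia. In the culture table Cox4i1 was listed at 0 in all 6 libraries. Of 4528 genes with a mean of at least 100 in each sorted-cell table, 56 had a mean under 5 in cultures and 41 were at 0 in all, so this 0 is not read as a level.

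Cox6b2 was highest in vehicle cultures, at 14.6 ± 1.75 CPM, then in sorted pericytes at 6.08 ± 1.92, and at 0.19 ± 0.25 in neural cells. Cox7a1, the isoform of heart and muscle, stood at 5.43 ± 2.5 CPM in sorted pericytes and from 0.413 to 1.79 on average elsewhere, and its pericyte and endothelial ranges overlap (2.84 to 8.76, and 0.317 to 4.28). Cox7a2 varied less, from 72.4 ± 3.38 in cultures to 124 ± 20.8 in endothelial cells. Cox7a2l ran from 102 ± 22.1 in endothelial cells to 232 ± 20.3 in microglia, with pericytes (156 ± 21.0) and cultures (176 ± 4.21) overlapping in between. Cox6b1 ran from 92.7 ± 3.47 in whole brain to 238 ± 41.9 in pericytes, Cox6a1 from 77.1 ± 7.00 in whole brain to 278 ± 66.6 in endothelial cells, Cox7b from 69.0 ± 5.49 in cultures to 116 ± 2.68 in pericytes, and Cox8a from 79.0 ± 7.78 in whole brain to 258 ± 26.6 in pericytes.

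The c-ring of complex V is encoded by Atp5g1, Atp5g2 and Atp5g3, which give the same mature protein. Atp5g1 ran from 30.9 ± 1.70 CPM in whole brain to 143 ± 32.0 in microglia, and Atp5g3 from 72.8 ± 13.1 in neural cells to 267 ± 39.5 in endothelial cells. Atp5g2 stood at 4.18 ± 1.46 in whole brain, with a range of 2.95 to 5.80, and between 28.3 and 47.6 on average in the other cell types. The genes counted differ, with 43626 listed for whole brain and 47937 for each of the other sets. Whether counting plays a part in the low whole-brain value was not tested, so that value is not read as isoform use. Of the matches that reached a mean of 10 in no table, Cox6a2 averaged at most 0.635 CPM (microglia) and Cox7b2 at most 0.242 (whole brain).

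**Figure D4:**
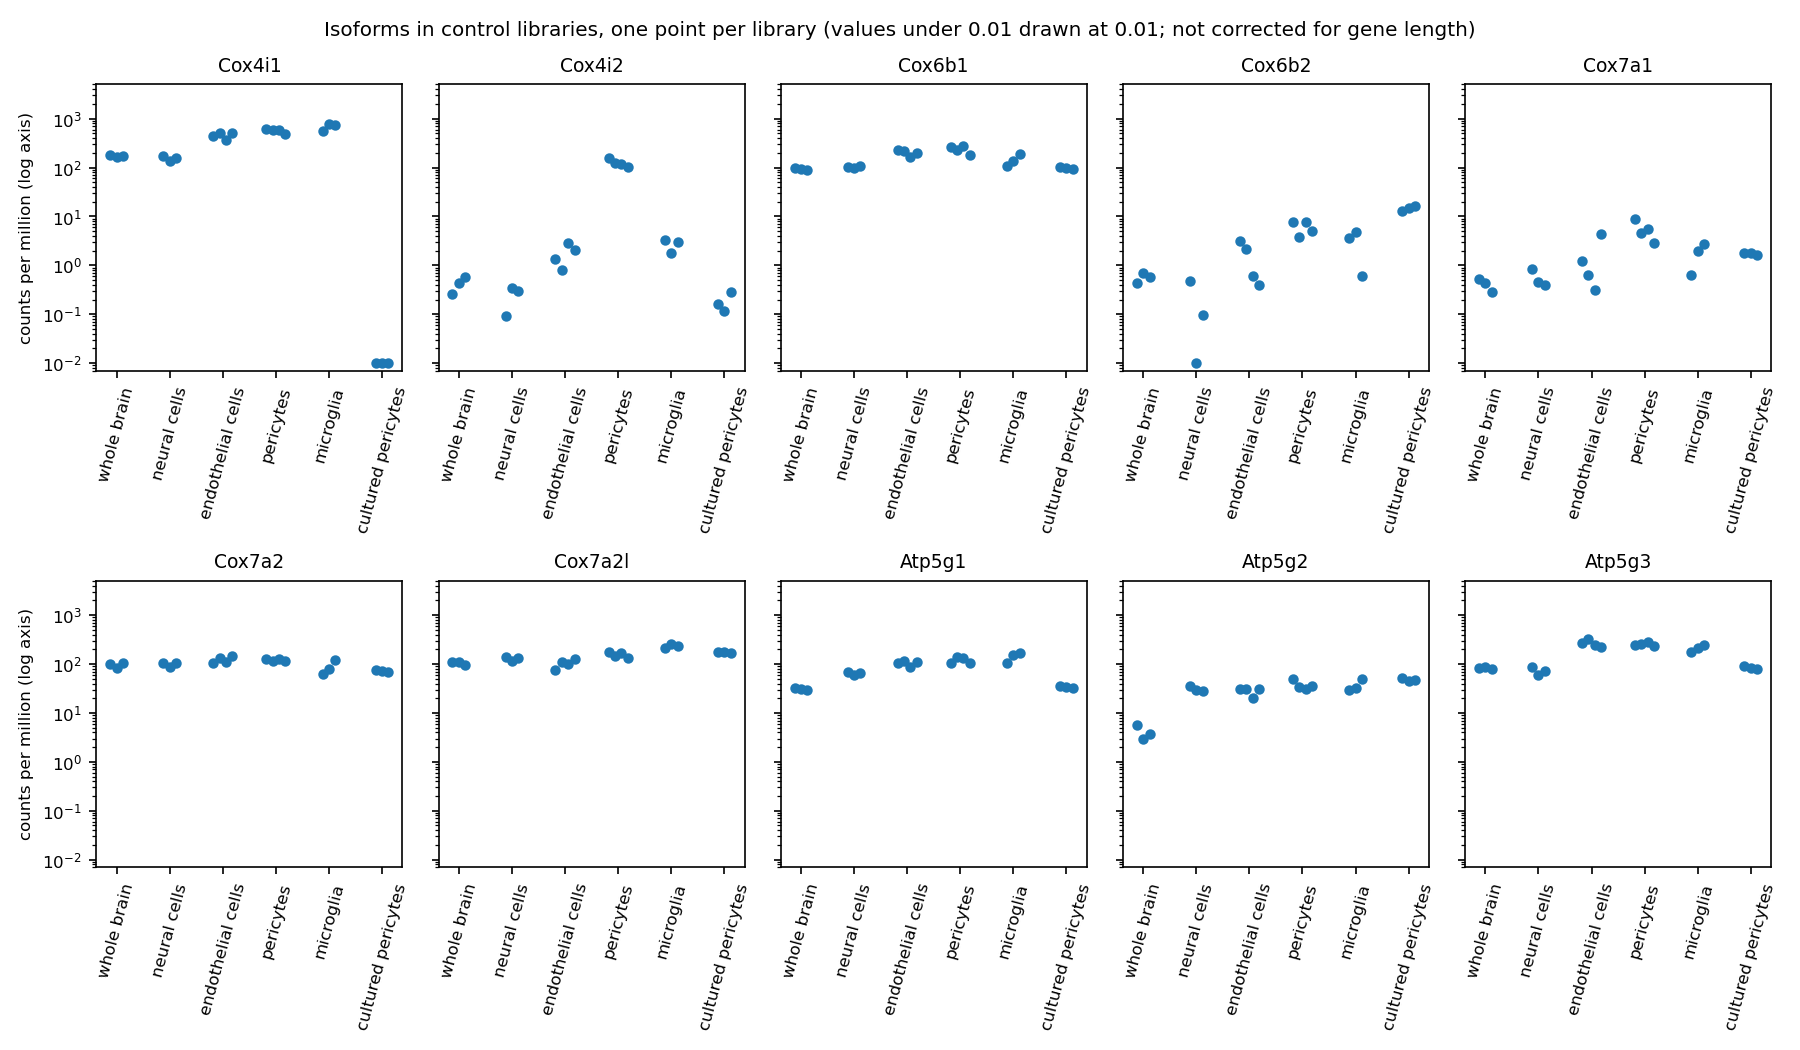
CPM (log axis, not corrected for gene length) of isoform genes in control libraries of each tissue or cell type, with one point per library and values under 0.01 drawn at 0.01. Cox4i2 stands at 101 to 159 CPM in sorted pericytes and at no more than 3.29 in any other control library.

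Members in sorted endothelial cells did not pass in any knockout: 0 of 39 passed with limma in Mof, Kansl2 and Kansl3 nKO, where 0% of all genes passed in each. At an unadjusted p under 0.05 the counts were 11, 0 and 5, and edgeR on recovered reads also passed 0, with 12, 0 and 4 at that p. The median member was at -0.31 in Mof nKO, beside 0.09 for all genes, at -0.05 in Kansl2 nKO, beside 0.06, and at -0.23 in Kansl3 nKO, beside 0.03. Atp5h had 3017, 3083, 2427 and 2971 normalized counts in Mof nKO endothelial cells, against 4737, 5243, 4018 and 6728 in Cre controls, so the groups did not overlap, but the fold of -0.83 ± 0.19 did not pass (adjusted p = 0.361). Atp5sl, which fell in brain and neural cells, had 435, 299 and 577.3 in Kansl3 nKO endothelial cells, against 284, 87.4, 291 and 215 in Cre controls (1.08 ± 0.51, adjusted p = 0.778). Library K2-196 of Kansl2 nKO stood apart, with complex IV genes at 0.374% of reads, where the mean of Cre controls was 0.200%. Library Cre130, a control in all 3 comparisons, had 7.69% of mitochondrially encoded reads, against 1.11 to 2.18% in the other controls, and endothelial markers at 0.709%, against 0.962 to 1.02%. Without it, 0 members passed in each comparison as well.

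In sorted pericytes of Kansl2 nKO, Atp5d, the delta subunit of the F1 part, was the 1 of 39 members that passed, beside 1.26% of genes that fell and 0.951% that rose. It had 609, 534 and 499 normalized counts in the knockout, against 903, 828, 1008 and 775 in Cre controls, without overlap (-0.68 ± 0.15, adjusted p = 0.0314). The call was lost without any 1 of the 4 Cre libraries or without library K2_330 or K2_338, with adjusted p between 0.0524 and 0.0983, and without K2_328 the count was 2. In Mof nKO 0 members passed (3 at an unadjusted p under 0.05, limma), beside 0% of genes, and in Kansl3 nKO 0 passed (4 at that p), beside 3.11% of genes, or 1 without library K3_333.

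In pericytes the median member was -0.16 in Mof nKO, -0.24 in Kansl2 nKO and 0.11 in Kansl3 nKO, where the medians of all genes were -0.05, -0.04 and -0.04; the pericyte knockouts were not tested against each other. Atp5a1, the F1 alpha subunit, had 2414, 2243, 2970.3 and 2496 normalized counts in Kansl3 nKO pericytes, against 1880.2, 1935, 1884 and 1659 in Cre controls, all higher than the controls (0.46 ± 0.12, adjusted p = 0.063). Cox4i2, whose level was high in control pericytes, had 118, 339.5 and 363 in Mof nKO and 364, 308 and 316 in Kansl2 nKO, against 526, 408, 398 and 327.7 and 567, 439, 432.1 and 358 in the same Cre controls within each table. It did not pass in Mof nKO (-0.74 ± 0.34, adjusted p = 0.367), Kansl2 nKO (-0.43 ± 0.19, adjusted p = 0.241) or Kansl3 nKO (-0.40 ± 0.18, adjusted p = 0.237). Pericyte markers summed to 0.564 to 0.787% of reads in Mof nKO pericytes, against 1.04 to 1.34% in Cre controls, and their part in these values was not tested.

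In microglia of Mof nKO, 0 of 37 members passed with limma (2 at an unadjusted p under 0.05), beside 0% of genes, and edgeR on recovered reads passed 0 with 1 at that p. Without library M643, 1 member passed. The median member was at 0.09 and the median of all genes at -0.50 with limma on the deposited values, and they were at 0.06 and -0.03 with edgeR, which scales, filters and fits low genes differently. Atp5s was listed at 0.823, 0 and 0 normalized counts in Mof nKO microglia, against 38.6, 51.5 and 34.8 in Cre controls, and did not pass (adjusted p = 0.188). Microglial markers summed to 0.270 to 0.552% of reads in Mof nKO, against 0.939 to 1.22% in Cre controls, and mitochondrially encoded RNAs to 5.54 to 16.5%, against 4.41 to 6.43%. Their part in the result was not tested.

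In cultured pericytes, 2 of 37 members rose and 12 fell with fatty acids, in a comparison where 32.3% of 15625 genes rose and 34.3% fell (edgeR). The median member was at -0.09 and the median of all genes at -0.04. Complex III had 2 falls and 1 rise, complex IV 6 falls, and complex V 4 falls and 1 rise. Without fatty acid culture 1, 22 members passed in place of 14.

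The rises were those of Uqcrq and Atp5g1. Uqcrq had 68.2, 55.2 and 64.2 TMM-scaled CPM with fatty acids, against 29.8, 25.3 and 27.5 with vehicle (1.18 ± 0.10, adjusted p = 4.94e-05). Atp5g1 had 58.4, 42.0 and 41.8 with fatty acids, against 33.1, 31.9 and 30.7 (0.57 ± 0.14, adjusted p = 0.00718). All treated cultures lay above all vehicle cultures for both. Uqcrq fell in each neural knockout and rose here, while Uqcrh, Cox6b1, Cox6c and Atp5j fell in each neural knockout and also here. The settings differ in cells, age and treatment, and were not compared by a test.

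The largest falls were in Cox7a1 and Cox6b2. Cox7a1 had 0.578, 0.34 and 0.342 CPM with fatty acids, against 1.69, 1.68 and 1.54 with vehicle (-1.96 ± 0.24, adjusted p = 0.000291). Cox6b2 had 4.55, 3.60 and 2.83 with fatty acids, against 12.04, 13.7 and 15.4 (-1.91 ± 0.19, adjusted p = 9.07e-05). No treated culture reached a vehicle culture for either isoform gene.

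Uqcrh had 58.6, 43.3 and 42.3 CPM with fatty acids, against 133.7, 129 and 123.4 with vehicle (-1.42 ± 0.13, adjusted p = 6.55e-05). Cox7a2 had 44.2, 33.9 and 37.8 with fatty acids, against 71.1, 67.0 and 65.4 (adjusted p = 0.000345, a fall by 0.81), and Atp5k had 24.9, 18.7 and 20.5, against 34.2, 29.7 and 31.8 (-0.58 ± 0.12, adjusted p = 0.00355). These groups did not overlap. The members that fell by less were Atp5j2, Cox7b, Atp5l, Atp5j, Cox6c, Cox6b1 and Uqcr11, at -0.57 to -0.36.

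**Figure D5:**
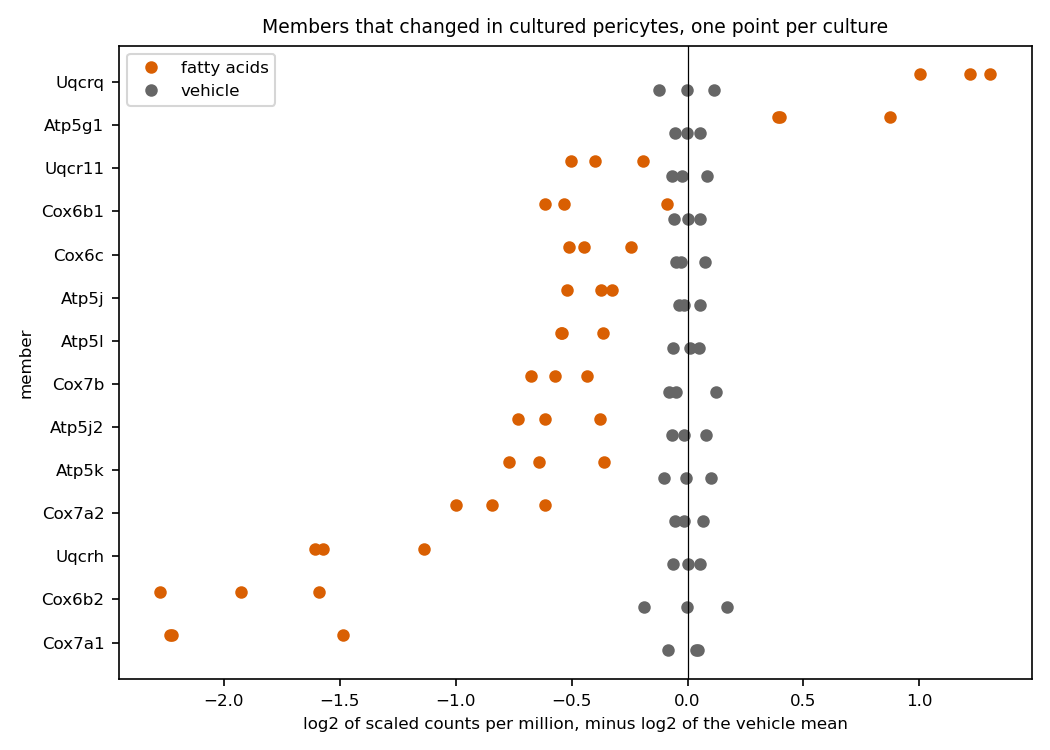
Level of each member that changed in cultured pericytes, as log2 TMM-scaled CPM minus the log2 vehicle mean (x axis), with one point per fatty acid or vehicle culture. Uqcrq and Atp5g1 lie to the right of the vehicle cultures, and the other 12 members to the left.

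The counts of the other lists stand beside the same 32.3% of all genes that rose and 34.3% that fell. Of 20 complex IV assembly factors 7 rose and 6 fell, with Coa7 at 1.18 and Pet100 at -1.26 ± 0.09. On the complex II list, subunits and assembly factors together, 3 of 8 genes fell. Of 10 tested subunits and partners outside the symbol rule, 3 rose and 4 fell. Cycs, cytochrome c, rose (1.12 ± 0.09), and Ndufa4l2, a relative of a complex IV subunit, fell (-1.98 ± 0.23). Of 12 regulators 8 rose and 2 fell, with Pprc1 rising by 1.96 and its relative Ppargc1a at -1.60 ± 0.15. The mitochondrially encoded mt-Cytb of complex III fell by 1.66. Pericyte markers summed to 34.1 CPM with fatty acids and 213 CPM with vehicle, and fibroblast markers to 0.00817 to 0.0104% of reads with fatty acids, against 0.0402 to 0.0412% with vehicle. Neural progenitor markers summed to 0.133 to 0.192% with fatty acids, against 0.226 to 0.262% with vehicle, and mitochondrially encoded RNAs to 0.883 to 1.48%, against 1.75 to 1.99%. Their part in the result was not tested.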

How the data were processed

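The 64 RNA libraries of 20 groups were used, and 21 chromatin immunoprecipitation samples of the 85 samples were not analysed here. STAR (mm10), featureCounts and DESeq2 are named per the submitters' processing notes, with versions not given in the sources used here. Per the labels, whole-brain, neural and culture libraries were made with TruSeq and the other sorted cells with SMART-Seq v4 and Nextera XT. The deposited whole-brain and culture tables hold counts, raw reads per gene. In the sorted-cell tables the authors deposited a signal, gene counts divided by size factors within each table, so tests stay within a table. Whole reads were recovered for 100% of values in 68 columns (tolerance 0.01). Among 72 pairs of libraries in a group none was a duplicate. An endothelial Mof column matched its group but no title, and was used by group.

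Counts were tested with edgeR 4.0.16 (TMM, filterByExpr, quasi-likelihood F test), and the signal with limma 3.58.1 (with a trend in the variance), after adding a pseudocount of 1 and taking log2, where a gene's mean was 10 or more; this understates folds of low genes. P-values were adjusted by Benjamini-Hochberg over all genes tested, and 0.05 was the threshold; "rose", "fell" and "changed" mark what passed. The SE of an edgeR fold is its size over the square root of F. DESeq2 1.42.0 and R 4.3.3 served for alternatives, and the scripts for tests were tested on simulated data. Up to 5 members with the largest folds per direction and the isoform genes were to be named per comparison; other members named were chosen after their values were seen. The members and lists were chosen with earlier results of these data known.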

Additional observations from a re-analysis of the deposited data

Results flagged for a closer look

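Several members had folds of opposite sign in different cell types under the same knockout, with every knockout library above all controls in one cell type and below all controls in another. These differences were not tested, how many other genes separate in this way was not counted, and most of the folds did not pass on their own, among them all in endothelial cells and all of the Kansl3 nKO folds in pericytes. Under Mof nKO, Atp5sl had a log2 fold change of 0.79 in endothelial cells, -0.86 in whole brain and -1.15 in neural cells. Under the same knockout Atp5l was at 0.49 in whole brain and -0.58 in endothelial cells, Cox7c at 0.41 in whole brain and -0.50 in endothelial cells, and Atp5g1 at 0.18 in neural cells and -0.52 in endothelial cells.

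In libraries labelled Kansl2 nKO, Atp5d was at 0.13 in neural cells and -0.68 in pericytes. In those labelled Kansl3 nKO, Atp5sl was at 1.08 in endothelial cells, -1.66 in whole brain and -1.89 in neural cells. Atp5f1, Atp5a1 and Atp5c1 were at 0.38, 0.46 and 0.43 in pericytes. In neural cells these 3 genes were at -0.32, -0.31 and -0.22, and Atp5f1 was at -0.30 in whole brain. Cox7b was at 0.42 in whole brain, -0.36 in neural cells and -0.29 in endothelial cells.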

How the results depend on the processing

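Of 200 alternative counts of members that passed or differed, 167 were within 1.5 times the reported count. Apart from leaving out a library, 5 of 72 were not: whole brain Mof gave 2 in place of 1 with DESeq2, with no filter and with only its 6 libraries, pericytes Kansl2 gave 0 with no filter, and pericytes Kansl3 gave 1 at a mean of at least 50. Leaving out each library in turn gave, in whole brain, 1 to 2 members for Mof, 2 to 4 for Kansl2 and 5 to 10 for Kansl3, with 0 to 2, 1 to 6 and 0 to 2 for Mof against Kansl2, Mof against Kansl3 and Kansl2 against Kansl3. It gave 9 to 14 for neural Mof, 11 to 16 for neural Kansl2 and 26 to 32 for neural Kansl3, with 0 to 1, 17 to 29 and 13 to 26 for the same pairs of knockouts. It gave 0 to 0 for each endothelial comparison and for pericytes Mof, 0 to 2 for pericytes Kansl2, 0 to 1 for pericytes Kansl3, 0 to 1 for microglia and 12 to 22 for culture. Of 498 alternatives for 51 named results, 450 kept their side of the threshold, 48 lost it (43 on leaving out a library) and 0 reversed.

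With the shared culture numbers as a replicate block, 16 members passed in place of 14. Same-numbered cultures correlated at 0.36, 0.23 and 0.06 over 12918 genes. Fatty acid cultures 1 and 3 correlated best with the vehicle culture of their own number, and culture 2 with vehicle culture 3 (0.34). Pairs of unlike numbers ran from -0.50 to 0.34, so these values do not settle whether the numbers pair the cultures. Groups of 3 or 4 and the low counts of Cox7a1, Cox6b2 and Atp5s limit precision.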
